A study of Mus musculus with 24 samples.

Results

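Of the 27179 genes in the count table, 48 were examined here: the genes that duplicate DNA in S phase, taken as the rows whose Entrez identifier belongs to one of 48 listed symbols. All 48 were found, and they were grouped by role. The list holds 11 genes of origin licensing and the MCM helicase, 6 of origin firing and 6 of the sliding clamp and its loader. It also holds 9 of the polymerases and primase, 5 of single-strand binding and Okazaki fragment joining, 4 of nucleotide supply and both E-type cyclins. The last 5 are genes of replication-coupled chromatin, with Slbp, which binds histone mRNA, counted among them. RNA came from mammary epithelial cells of mice in puberty, sorted and sequenced in bulk as 24 libraries, 2 for each of 12 groups. Ducts were microdissected apart from terminal end buds (TEBs), the club-shaped growing ends of the ductal tree, and lineage-negative EpCAM+ cells were then sorted into a basal gate (Cd29hi) and a luminal gate (Cd29lo). Every mouse carried a reporter: either Elf5-rtTA-IRES-GFP, where GFP divided the luminal gate into GFP+ and GFP- cells, or PR-cre/Rosa26-LSL-eYFP, where YFP divided it into YFP+ and YFP- cells. The basal gate was sorted in both models, which gives 6 populations, each from ducts and from TEBs. GFP is made together with rtTA under Elf5 control, whereas YFP stays on after Cre has acted in a cell or its ancestors, so the gates of both models are not the same cells by construction. Neither the age in weeks nor the number of animals per library was stated. Nothing in the labels tells whether the replicates of a group were separate animals. A p-value here therefore measures only the spread between libraries, which may be technical.

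Before S phase, the origin recognition complex, Cdc6 and Cdt1 load the MCM ring onto DNA, and geminin blocks a second loading. Cyclin E with its kinase helps to trigger firing, when Cdc45 and the GINS complex join the ring to form the active helicase. DNA polymerases then copy both strands, held by the PCNA clamp. Many of these genes are known targets of E2F transcription factors and are transcribed mainly in cells that enter S phase. TEBs are known as the most proliferative region of the pubertal mammary gland. In bulk RNA, a larger share of cycling cells and more RNA per cycling cell cannot be told apart.

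Library totals ran, in units of 1e6 counts, from 31.3 to 52.5, and the lowest count of any replication gene in any library was 19 (Ccne1), so no zero enters what follows. Levels are given as CPM, counts per 1e6 counts after TMM scaling. The 8 basal markers summed to between 5759 and 30430 CPM in the basal libraries and, in 7 of the 8 luminal libraries of each tissue, to between 8.61 and 148 CPM. The exceptions were luminal GFP- duct replicate 2 (3316 CPM) and luminal YFP- TEB replicate 2 (811 CPM). Those libraries also held the most RNA of 12 keratinocyte markers, 2536 CPM and 509 CPM in sum against 12.1 to 98.2 CPM elsewhere. Basal markers were themselves lower in basal TEBs (5759 to 12380 CPM) than in basal ducts (27990 to 30430 CPM). Summed immune markers ran from 15.5 to 39.6 CPM in basal ducts and 3.59 to 5.99 CPM in basal TEBs. Of the 10, 4 were called lower in the mean of the populations, 3 in Elf5-model basal cells and 1 in PR-cre-model basal cells. Endothelial and pericyte markers ran from 31.4 to 122.7 CPM in basal ducts and 18.2 to 39.5 CPM in basal TEBs. Of these 10, 1 was called lower in the mean, 4 in Elf5-model basal cells and 0 in PR-cre-model basal cells. Among luminal markers 5 of 8 were called lower in each basal population. Of all genes tested, 19.2% were called lower in Elf5-model and 12.7% in PR-cre-model basal cells. The 10 fibroblast and adipocyte markers summed to 319 to 875 CPM in basal ducts and 374 to 1256 CPM in basal TEBs, and to 24.2 to 133 CPM in luminal ducts and 15.4 to 170.0 CPM in luminal TEBs. In the mean of the populations 5 of the 7 tested were called higher in TEBs and 1 lower, while Adipoq had no count in 20 of 24 libraries. In that mean 23.0% of all genes tested were called higher, and the share called lower is not given here. The part of these cells in the changes below was not tested. Duct replicate 2 of the Elf5 model held the lowest summed level of the 48 replication genes in each of its 3 gates, at 1031 to 1101 CPM against 1380 to 1888 CPM in the other 9 duct libraries. Their names repeat the model, the replicate number and the tissue, so these 3 libraries may share animals.

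Every replication gene was higher in TEBs than in ducts when the 6 populations were averaged. The 48 genes together made up 1031 to 1888 CPM of the duct libraries (median 1568) and 2444 to 4421 CPM of the TEB libraries (median 3278), so no TEB library came as low as any duct library. The ratio of the mean sums, TEB over duct, lay between 2.02 in luminal GFP- cells and 2.52 in Elf5-model basal cells. Without the 3 Elf5-model duct replicate 2 libraries, the ratio was 2.11 in Elf5-model basal, 1.98 in GFP+ and 1.68 in GFP- cells, and the highest of the 6 was then the 2.37 of YFP- cells. In the fit of all 24 libraries (edgeR's quasi-likelihood test with Benjamini-Hochberg adjustment over 18109 genes), 48 of 48 rose in the mean of the 6 populations, where 23.0% of all genes tested were called higher. Their median log2 change was 1.33, and that of all genes was -0.03. This fit took all 24 libraries as independent. If gates of the same replicate number and tissue share animals, standard errors and p-values of the mean may be too small. All 48 calls were kept without the Elf5-model duct replicate 2 libraries, where the median change was 1.15, and without both libraries with keratinocyte RNA, where it was 1.26. The change of each of the 48 was smaller without the 3 Elf5-model libraries, the log2 value with them being 1.01 (Pold3) to 1.41 (Fen1) times that without. The single weak call was Pold3, named below.

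**Figure D1:**
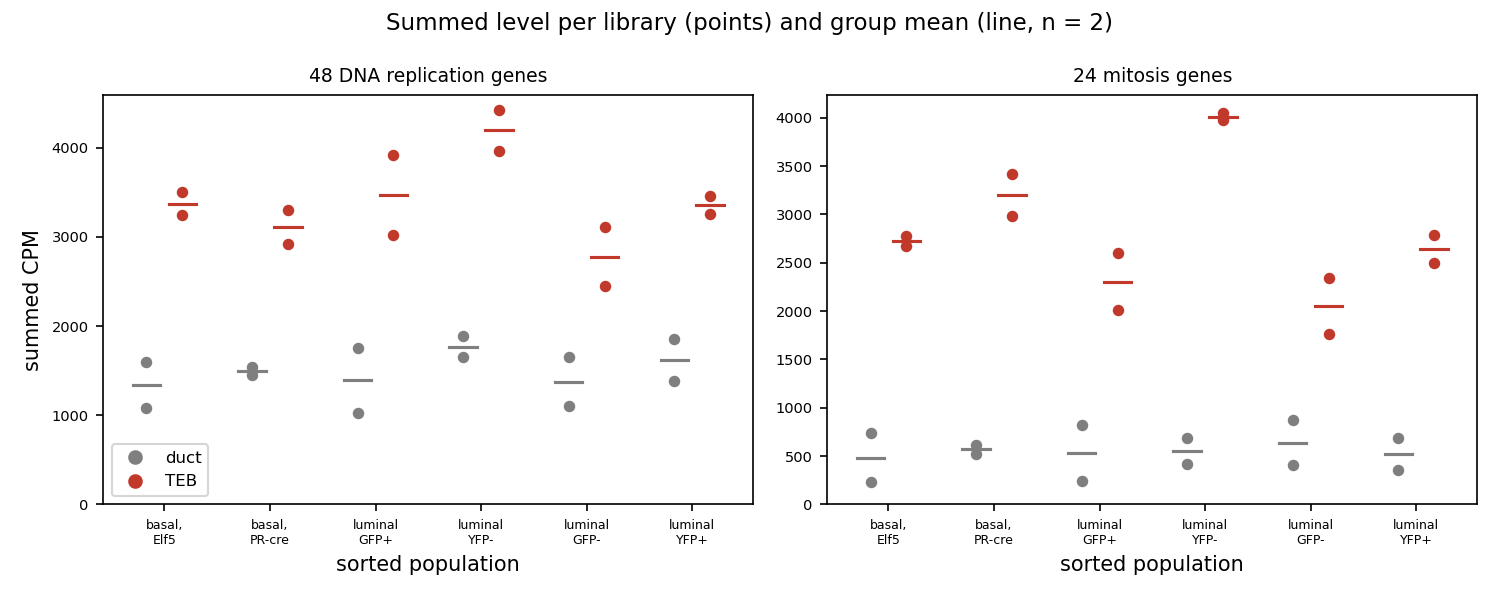
Summed CPM of the 48 replication genes (left) and of 24 mitosis genes (right) in each library, by sorted population; grey points are duct and red points TEB libraries, and lines are the means of 2. TEB libraries reach 2444 to 4421 CPM on the left, all above the highest duct library at 1888 CPM.

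The genes were then read in each population on its own. In Elf5-model basal cells 41 of 48 were called higher in TEBs (17.2% of all genes), with a median log2 change of 1.43. In PR-cre-model basal cells 29 were called higher (12% of all genes, median 1.13). Among luminal cells 41 were called in GFP+ (11.8% of all genes, median 1.55), 26 in GFP- (8.85%, median 1.20), 18 in YFP+ (4.61%, median 1.09) and 41 in YFP- cells (10.5%, median 1.49). Without the 3 Elf5-model duct replicate 2 libraries the medians were 1.23 in Elf5-model basal, 1.17 in GFP+ and 0.85 in GFP- cells. No replication gene was called lower in any population, where 19.2%, 12.7%, 10.9%, 9.65%, 3.25% and 7.97% of all genes were, in the same order. These counts moved with single libraries. Without duct replicate 2, 26 were called in Elf5-model basal cells. In PR-cre-model basal cells 14 were called without duct replicate 1, 13 without TEB replicate 1 and 7 without duct replicate 2. In GFP+ cells 15 were called without TEB replicate 1 and 11 without duct replicate 2. In GFP- cells 3 were called without TEB replicate 1, 14 without TEB replicate 2, and 3 without duct replicate 2, the library with the most keratinocyte RNA. In YFP+ cells 1 was called without duct replicate 1, 11 without duct replicate 2, and 4 without either TEB library. In YFP- cells 7 were called without duct replicate 1, 18 without duct replicate 2 and 20 without TEB replicate 1. Leaving out the 3 Elf5-model duct replicate 2 libraries together, a setting chosen after the data were seen, gave 44 calls in YFP+ cells and 43 in basal cells of PR-cre mice. None of those libraries belongs to either population, but all groups share 1 estimate of spread. The share of all genes called was not counted with libraries left out. Whether these moves are particular to the replication genes therefore cannot be told.

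Separation of the libraries was counted next. Both TEB libraries lay above both duct libraries for 46 of the 48 genes in Elf5-model basal cells (31.9% of all genes), 45 in PR-cre-model basal cells (32.1%), 44 in GFP+ cells (31.2%), and 47 each in GFP- (28.1%), YFP+ (27.6%) and YFP- cells (29.5%). The exceptions were few and had names. Ccne1 and Slbp did not separate upward in either basal population, nor did Pcna in PR-cre-model basal cells. The same held for Fen1, Gins4, Rfc1 and Pold3 in GFP+ cells, and for Pold3 in the other luminal populations. By the test, 9 genes were called higher in all 6 populations: Mcm4, Orc6, Rfc2, Rfc5, Pola2, Prim1, Prim2, Rrm1 and Tyms (1.03% of all genes tested). Fen1 was called in none and Gins4 in 1.

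**Figure D2:**
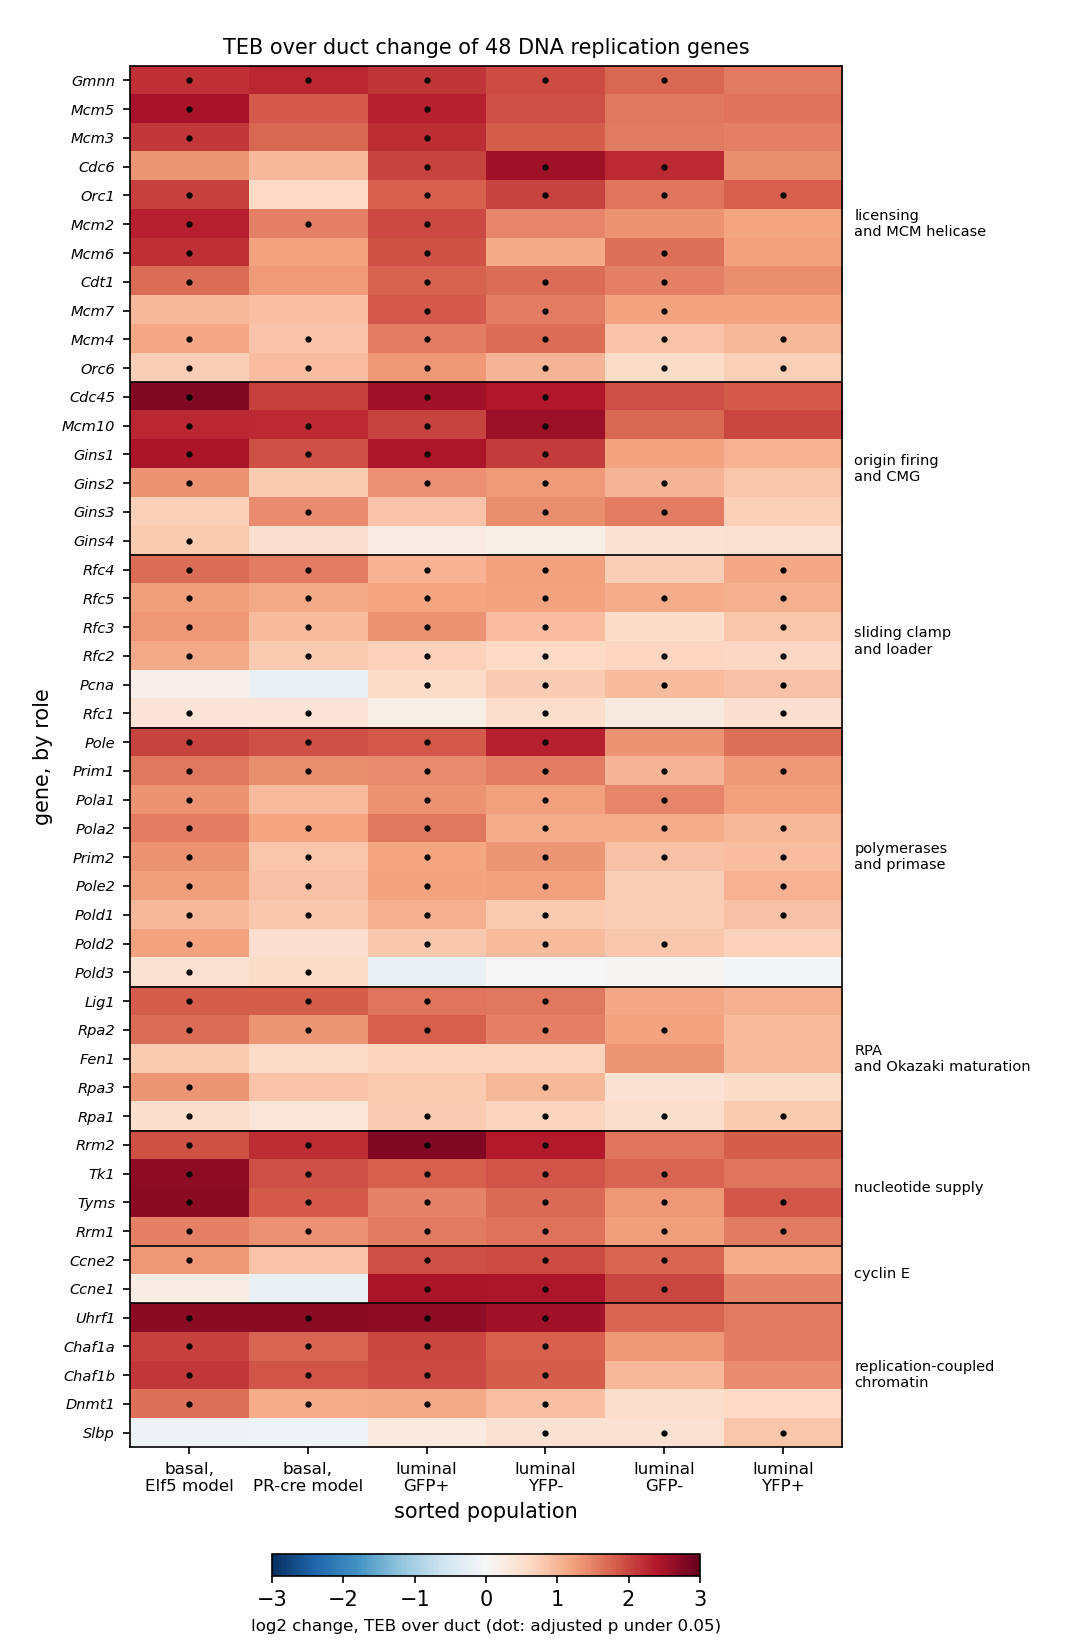
Log2 change, TEB over duct, of the 48 replication genes (vertical axis, grouped by role) in the 6 sorted populations (horizontal axis); red is higher in TEBs, blue lower, and a dot marks an adjusted p under 0.05. Nearly all cells are red, and those below 0 are Slbp in both basal populations, Pcna and Ccne1 in PR-cre-model basal cells, and Pold3 in GFP+, YFP+ and YFP- cells.

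The RefSeq windows around the start sites of these genes (GRCm38.p6, 250 bases before to 50 after) were searched for letters typical of E2F binding. These were TTTCCCGC, TTTGGCGC, TTTCGCGC and TTTGCCGC, on both strands and with overlapping matches allowed. A window was listed for 39 of the 48 genes. Of these, 16 (41.0%) held at least 1 match, against 3.29% of 17492 protein-coding genes and 2.60% of all 27025 genes with a window. Many of the 48 are known E2F targets, so this share cannot tell why they rose. The stretches of Mcm5 and Mcm6, subunits of the helicase, are shown because matches on both strands overlap there, and that of Ccne1 because it held no match although E2F is known to act on cyclin E genes. Capitals mark the matched letters, and each sequence runs 5′ to 3′ on the strand of the gene. Mcm5 lies at chr8:75109309-75109467 (plus strand), Mcm6 at chr1:128359706-128359905 (minus strand) and Ccne1 at chr7:38107535-38107690 (minus strand). All 3 stretches end upstream of the start site.
Mcm5: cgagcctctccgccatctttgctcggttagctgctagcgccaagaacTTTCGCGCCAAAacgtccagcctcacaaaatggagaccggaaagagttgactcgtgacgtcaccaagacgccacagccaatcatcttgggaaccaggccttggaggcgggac
Mcm6: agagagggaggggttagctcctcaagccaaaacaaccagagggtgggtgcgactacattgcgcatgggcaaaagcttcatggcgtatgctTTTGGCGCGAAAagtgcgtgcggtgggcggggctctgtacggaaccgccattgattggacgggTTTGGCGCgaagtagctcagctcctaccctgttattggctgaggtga
Ccne1: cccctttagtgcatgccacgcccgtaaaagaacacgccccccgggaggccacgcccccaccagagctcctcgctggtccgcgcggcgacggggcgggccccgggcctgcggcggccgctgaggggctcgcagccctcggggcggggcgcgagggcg

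For 10 others of the 16, from 5 of the roles, the first match is shown with 10 bases on each side. They lie on GRCm38.p6 at chr1:20820276-20820303 (Mcm3, minus), chr5:138172031-138172058 (Mcm7, minus), chr11:98908003-98908030 (Cdc6, plus), chr8:122568037-122568064 (Cdt1, plus), chr4:108579417-108579444 (Orc1, plus), chr8:95633508-95633535 (Gins3, plus), chr5:151651201-151651228 (Rfc3, minus), chrX:93632276-93632303 (Pola1, minus), chr17:56304118-56304145 (Uhrf1, plus) and chr7:100121468-100121495 (Pold3, minus).
Mcm3: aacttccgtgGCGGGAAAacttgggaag
Mcm7: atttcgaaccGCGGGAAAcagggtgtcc
Cdc6: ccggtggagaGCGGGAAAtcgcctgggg
Cdt1: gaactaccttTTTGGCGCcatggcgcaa
Orc1: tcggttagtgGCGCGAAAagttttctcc
Gins3: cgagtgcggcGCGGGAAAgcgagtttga
Rfc3: cgtcgcacgcTTTCGCGCtcGCGGGAAA
Pola1: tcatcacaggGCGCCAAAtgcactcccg
Uhrf1: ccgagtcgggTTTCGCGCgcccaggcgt
Pold3: agcgaagctgTTTCCCGCcggcgggagc

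The 16 genes with a match had a median log2 change, averaged over the populations, of 1.40 (0.12 to 2.32), and the 23 without a match 1.38 (0.29 to 2.25). Pold3, which changed least of all 48, holds a match (the last line above), and Cdc45 and Rrm2, among those that changed most, hold none in this window. A match is a description of letters and not a bound site. The CCAAT letters known from NF-Y binding were found in 64.1% of the replication gene windows and 42.3% of protein-coding windows. They were in 85.0% of the 20 windows of a list of 24 mitosis genes. A list of 30 other replication genes had them in 40.0% of its 25 windows. TTTGAA is the core of the element known as CHR in promoters of mitotic genes. It was found in 15.4% of the replication gene windows, 18.5% of protein-coding windows and 70.0% of the mitosis windows. Of those 20 mitosis windows, 1 held an E2F-type match, and 28.0% of the other replication windows did.

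**Figure D3:**
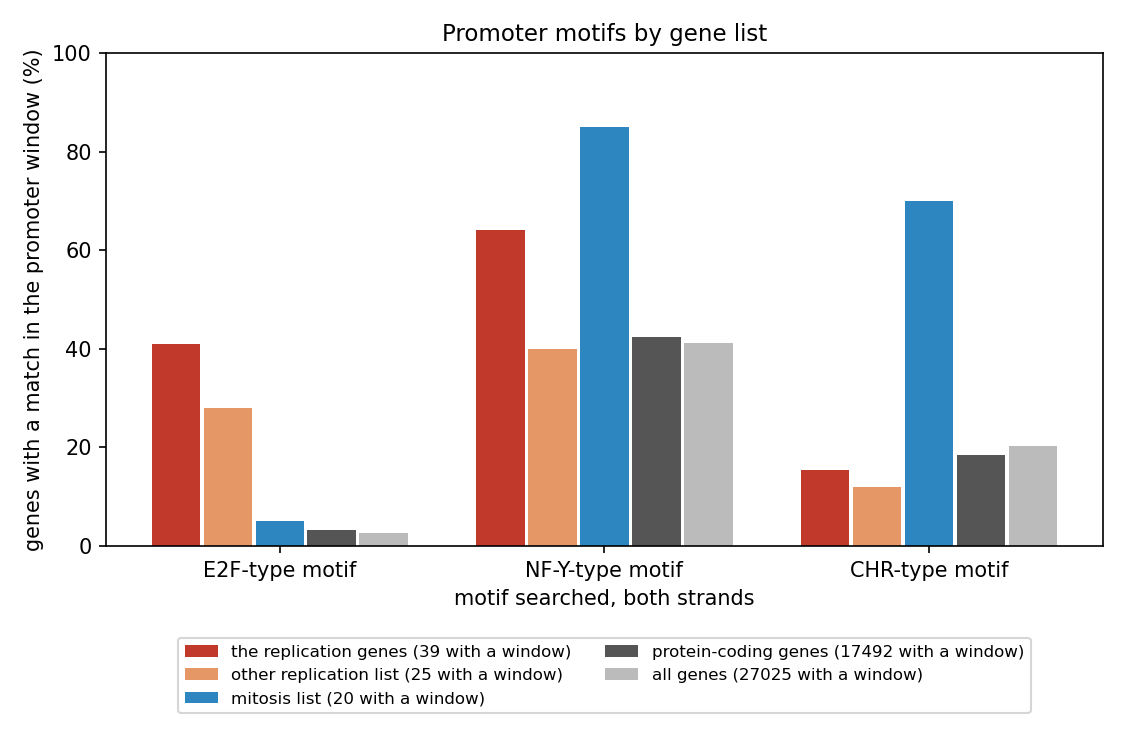
Share of genes (vertical axis, %) whose promoter window holds each kind of motif (horizontal axis), for the replication genes, a second replication list, a mitosis list, protein-coding genes and all genes. The E2F-type bar stands at 41.0% for the replication genes and 3.29% for protein-coding genes.

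Licensing genes rose together, by a median log2 change of 1.64 over their 11 members. The 6 subunits of the MCM helicase, which unwinds DNA ahead of the fork, rose by 1.18 (Mcm4), 1.28 (Mcm7), 1.55 (Mcm6), 1.64 (Mcm2), 1.82 (Mcm3) and 1.96 (Mcm5), with standard errors between 0.10 and 0.30. Their loaders Cdc6 and Cdt1 rose by 1.75 and 1.55, and Orc1, the largest subunit of the origin recognition complex, by 1.64. The widest change was that of Gmnn, the geminin that holds Cdt1 in check. In basal cells of the Elf5 model, Gmnn measured 9.14 and 4.86 CPM in the ducts and 32.2 and 31.5 CPM in the TEBs, and in the PR-cre basal gate 6.20 and 5.86 CPM and 32.1 and 25.9 CPM. In the luminal gate, ducts against TEBs, it measured 10.8 and 2.88 against 36.3 and 24.6 CPM in GFP+, 11.7 and 4.71 against 32.3 and 21.7 in GFP-, 7.79 and 11.5 against 30.2 and 26.7 in YFP+, and 9.91 and 13.4 against 47.4 and 42.9 in YFP- cells. All 12 TEB libraries lay above all 12 duct libraries, and the mean log2 change was 1.97 ± 0.21 (SE, adjusted p = 2.26e-06). The smallest belonged to Orc6, another origin recognition subunit. Basal libraries held Orc6 at 22.1 and 22.97 CPM in Elf5-model ducts, 38.2 and 36.3 CPM in Elf5-model TEBs, 19.8 and 20.6 CPM in PR-cre ducts and 38.9 and 38.5 CPM in PR-cre TEBs. The luminal ducts read 15.5 and 16.4 CPM in GFP+, 27.2 and 16.7 in GFP-, 23.9 and 27.8 in YFP+ and 22.4 and 28.1 in YFP- cells, and the TEBs of the same populations 41.1 and 37.4, 35.6 and 28.7, 42.2 and 42.2, and 53.6 and 47.99 CPM. Its TEB libraries again all lay above its duct libraries, with the highest duct at 28.1 CPM and the lowest TEB at 28.7 CPM. The change was 0.87 ± 0.07 (SE, adjusted p = 6.42e-08), small but called in each of the 6 populations.

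Mcm3 and Mcm5 had mean changes above those of the other MCM subunits, yet each was called in 2 populations only, Elf5-model basal and GFP+ cells, while Mcm4, with the smallest change, was called in all 6. In Elf5-model basal ducts Mcm5 read 47.2 and 9.66 CPM, and in GFP+ ducts 58.3 and 9.40 CPM. The replicates of Mcm4 in the same groups read 78.5 and 67.6 CPM and 67.3 and 35.1 CPM. In each of these pairs the lower value came from replicate 2. In PR-cre-model basal ducts, where Mcm5 was not called, it read 43.2 and 34.9 CPM, and Mcm4 read 83.8 and 75.7 CPM. Why Mcm3 and Mcm5 missed the threshold there was not tested.

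Genes of origin firing spanned a wide range. Cdc45, which joins the MCM ring and GINS to form the working helicase, changed most. Cdc45 read 7.64 and 1.31 CPM in the basal ducts of the Elf5 model against 32.9 and 29.4 CPM in the matching TEBs, and 5.59 and 5.92 CPM against 26.3 and 21.6 CPM in the PR-cre model. Among luminal cells, Cdc45 went from 7.42 and 1.90 CPM in ducts to 29.4 and 24.3 in TEBs for GFP+, with 8.82 and 2.13 and then 26.1 and 15.6 for GFP-, 4.61 and 8.85 and then 24.3 and 23.6 for YFP+, and 5.67 and 6.40 and then 32.04 and 31.8 for YFP-. No TEB library overlapped the ducts in any population, and the mean log2 change was 2.25 ± 0.30 (SE, adjusted p = 2.62e-05), a 4.77-fold difference (1.90 without the 3 Elf5-model duct libraries). Mcm10, a firing factor, rose by 2.14. Of the 4 subunits of GINS, Gins1 rose by 1.86, Gins2 and Gins3 by 1.10 each, and Gins4 by 0.43 ± 0.07 (SE, adjusted p = 0.00012). In basal cells of the Elf5 model, Gins4 measured 17.1 and 14.9 CPM in the ducts and 28.1 and 27.00 CPM in the TEBs, and in the PR-cre basal gate 17.5 and 18.8 CPM and 27.1 and 24.1 CPM. Of luminal cells, ducts against TEBs, it measured 29.96 and 23.3 against 33.8 and 29.2 CPM in GFP+, 17.7 and 16.3 against 24.5 and 21.3 in GFP-, 12.7 and 20.6 against 23.1 and 22.8 in YFP+, and 23.1 and 24.6 against 26.9 and 27.9 in YFP- cells. Both TEB libraries of Gins4 exceeded both ducts in 5 populations, and in GFP+ cells the higher duct library lay above the lower TEB library. Gins4 was called in Elf5-model basal cells alone of the 6. Whether its change differed from that of Gins1 was not tested.

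**Figure D4:**
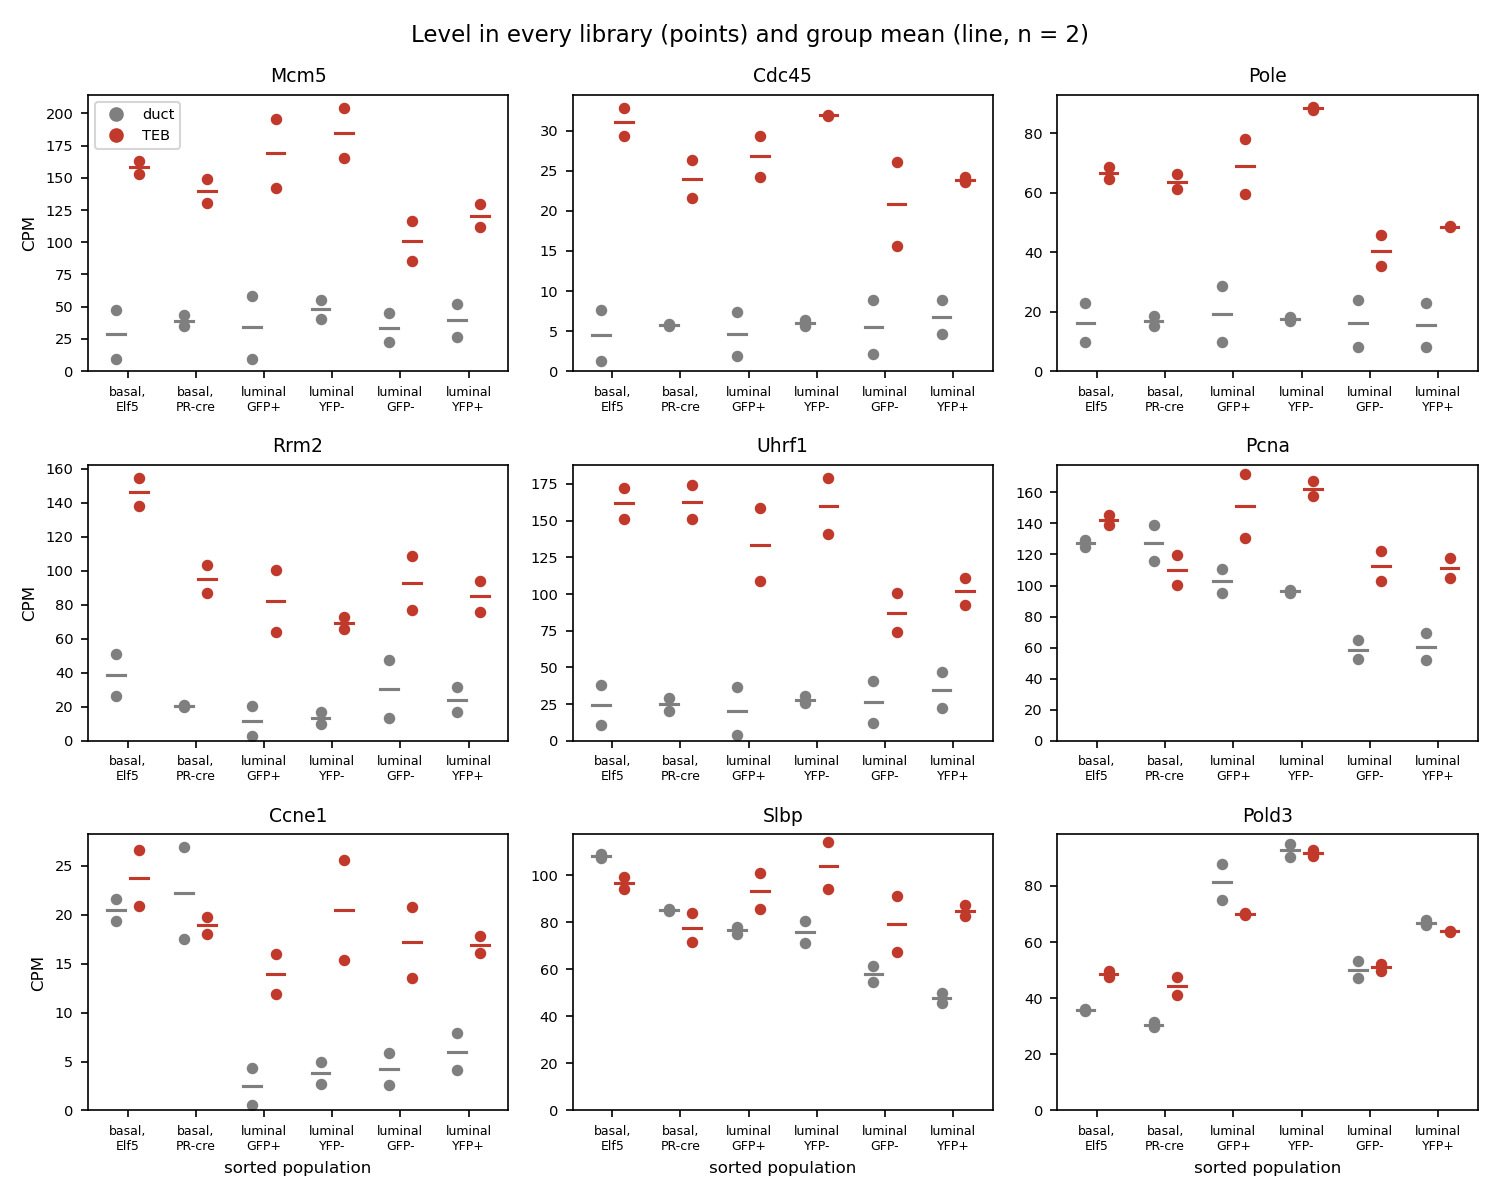
CPM of 9 replication genes in every library (vertical axes), by sorted population (horizontal axes); grey points are ducts, red points TEBs and lines the means of 2 libraries. Mcm5, Cdc45, Pole, Rrm2 and Uhrf1 are separated by tissue in every population, whereas Pcna, Ccne1 and Slbp are separated upward in luminal cells only and Pold3 in basal cells only, apart from a small upward step of Pcna in Elf5-model basal cells.

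The clamp and its loader rose by a median of 0.87 over 6 members. The replication factor C subunits, which open the PCNA ring and close it around DNA, rose by 0.75 (Rfc2), 0.98 (Rfc3), 1.16 (Rfc5) and 1.23 (Rfc4), and Rfc1 by 0.37 ± 0.05 (SE, adjusted p = 4.9e-06). Basal libraries held Rfc4 at 11.7 and 6.50 CPM in Elf5-model ducts, 30.3 and 28.5 CPM in Elf5-model TEBs, 11.6 and 9.40 CPM in PR-cre ducts and 34.6 and 26.3 CPM in PR-cre TEBs. In the luminal gate, ducts against TEBs, it measured 17.8 and 11.7 against 34.1 and 26.6 CPM in GFP+, 18.8 and 11.8 against 30.4 and 20.5 in GFP-, 12.5 and 14.3 against 31.3 and 28.7 in YFP+, and 15.7 and 18.6 against 43.3 and 36.97 in YFP- cells. All TEB libraries of Rfc4 lay above all duct libraries, for a change of 1.23 ± 0.12 (SE, adjusted p = 2.92e-07). Rfc1 read 90.3 and 91.3 CPM in the basal ducts of the Elf5 model against 119.5 and 117 CPM in the matching TEBs, and 97.8 and 102 CPM against 136 and 124 CPM in the PR-cre model. Among luminal cells, Rfc1 went from 88.9 and 84.7 CPM in ducts to 110.1 and 86.98 in TEBs for GFP+, with 86.5 and 87.2 and then 117 and 91.03 for GFP-, 82.5 and 90.3 and then 121 and 122 for YFP+, and 94.2 and 93.2 and then 137 and 135 for YFP-. In GFP+ cells the lower TEB value of Rfc1 lay between both ducts, and the tissues separated in the other 5 populations. Pcna, the clamp, rose by 0.51 ± 0.07 (SE, adjusted p = 6.1e-06) in the mean, and is taken up with the basal and luminal layers below.

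The polymerase genes rose by a median of 1.08 over 9 members. Pole, the catalytic subunit of polymerase epsilon on the leading strand, led them. In basal cells of the Elf5 model, Pole measured 22.9 and 9.60 CPM in the ducts and 68.6 and 64.4 CPM in the TEBs, and in the PR-cre basal gate 18.4 and 15.02 CPM and 66.1 and 61.1 CPM. The luminal ducts read 28.5 and 9.82 CPM in GFP+, 23.8 and 8.19 in GFP-, 8.21 and 22.9 in YFP+ and 16.9 and 18.04 in YFP- cells, and the TEBs of the same populations 78.1 and 59.6, 45.7 and 35.2, 48.8 and 48.4, and 87.9 and 88.8 CPM. Every TEB library exceeded every duct library, and the change was 1.85 ± 0.23 (SE, adjusted p = 1.66e-05). Its partner Pole2 rose by 1.06. The primase that lays down RNA primers rose by 1.38 (Prim1) and 1.08 (Prim2), and the polymerase alpha subunits that extend them by 1.26 (Pola1) and 1.25 (Pola2). Of polymerase delta, which copies the lagging strand, the catalytic Pold1 rose by 0.87 and Pold2 by 0.83. Pold3, an accessory subunit of the same enzyme, followed in basal cells only. It was called higher in the Elf5-model (0.45) and PR-cre-model (0.54) basal cells and in no luminal population. Basal libraries held Pold3 at 35.4 and 36.03 CPM in Elf5-model ducts, 47.6 and 49.7 CPM in Elf5-model TEBs, 31.5 and 29.6 CPM in PR-cre ducts and 47.7 and 41.2 CPM in PR-cre TEBs. Of luminal cells, ducts against TEBs, it measured 87.8 and 75.02 against 70.5 and 69.8 CPM in GFP+, 47.2 and 53.2 against 49.8 and 52.3 in GFP-, 66.1 and 67.8 against 63.98 and 63.6 in YFP+, and 95.1 and 90.4 against 92.7 and 90.8 in YFP- cells. Pold3 was higher in both TEB libraries of each basal population, while in GFP+ and YFP+ cells both TEB libraries lay below both ducts. Its mean change, 0.12 ± 0.04 (SE, adjusted p = 0.0213), was the smallest of the 48, and the call was lost with RLE scaling (0.075, adjusted p = 0.138), with upper quartile scaling (0.086, adjusted p = 0.086) and with DESeq2 (0.075, adjusted p = 0.136).

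Single-strand binding and Okazaki fragment genes rose by a median of 0.83 over 5 members. The RPA trimer coats single-stranded DNA, and of its subunits Rpa2 rose by 1.41, Rpa3 by 0.82 and Rpa1 by 0.60. Rpa1 had the smallest change of the group. Rpa1 read 79.7 and 63.4 CPM in the basal ducts of the Elf5 model against 105 and 99.7 CPM in the matching TEBs, and 86.5 and 77.5 CPM against 112 and 97.7 CPM in the PR-cre model. The luminal ducts read 57.6 and 49.3 CPM in GFP+, 80.8 and 67.4 in GFP-, 67.2 and 80.5 in YFP+ and 66.3 and 74.1 in YFP- cells, and the TEBs of the same populations 96.2 and 84.8, 120.3 and 93.9, 128 and 127, and 125 and 97.7 CPM. The tissues separated within each population, with a change of 0.60 ± 0.06 (SE, adjusted p = 8.51e-07). Lig1, the ligase that seals Okazaki fragments, had the largest. In basal cells of the Elf5 model, Lig1 measured 36.8 and 17.8 CPM in the ducts and 99.5 and 93.7 CPM in the TEBs, and in the PR-cre basal gate 27.5 and 23.9 CPM and 92.1 and 87.4 CPM. Among luminal cells, Lig1 went from 56.97 and 28.5 CPM in ducts to 153 and 109 in TEBs for GFP+, with 51.6 and 25.7 and then 93.2 and 79.2 for GFP-, 35.8 and 66.1 and then 111 and 103 for YFP+, and 49.9 and 57.8 and then 167 and 157 for YFP-. No TEB library of Lig1 came as low as any duct library, and the change was 1.51 ± 0.16 (SE, adjusted p = 3.4e-06). Fen1, the flap nuclease that trims the fragments before sealing, rose by 0.83 ± 0.18 (SE, adjusted p = 0.00146) in the mean and passed the test in no single population, with changes from 0.58 in PR-cre-model basal cells to 1.33 in GFP- cells. Its replicates were far apart in the Elf5-model ducts, at 58.7 and 27.4 CPM in basal, 77.00 and 32.2 CPM in GFP+ and 26.9 and 10.99 CPM in GFP- cells, replicate 2 being the lower in each.

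Nucleotide supply genes rose by between 1.48 and 2.12. Rrm1 and Rrm2 are the subunits of ribonucleotide reductase, which makes deoxynucleotides, Tyms makes thymidylate, and Tk1 salvages thymidine. Basal libraries held Rrm2 at 51.01 and 26.5 CPM in Elf5-model ducts, 155 and 138 CPM in Elf5-model TEBs, 20.1 and 20.8 CPM in PR-cre ducts and 103 and 87.3 CPM in PR-cre TEBs. The luminal ducts read 20.7 and 3.07 CPM in GFP+, 47.7 and 13.3 in GFP-, 16.7 and 31.4 in YFP+ and 9.99 and 16.7 in YFP- cells, and the TEBs of the same populations 100.5 and 64.3, 109 and 76.99, 93.98 and 76.04, and 73.1 and 65.8 CPM. Rrm2 separated completely by tissue and rose by 2.12 ± 0.29 (SE, adjusted p = 3.34e-05). In basal cells of the Elf5 model, Rrm1 measured 86.1 and 55.4 CPM in the ducts and 208 and 197 CPM in the TEBs, and in the PR-cre basal gate 82.9 and 80.2 CPM and 227 and 193 CPM. Ducts against TEBs of the luminal gate, it measured 91.1 and 42.8 against 231 and 165 CPM in GFP+, 84.3 and 50.1 against 189 and 133 in GFP-, 59.8 and 87.97 against 229 and 204 in YFP+, and 78.2 and 104 against 298 and 266 in YFP- cells. Rrm1, its partner, also separated completely and rose by 1.48 ± 0.14 (SE, adjusted p = 9.33e-07), with a call in every population. Tyms rose by 1.82 ± 0.15 (SE, adjusted p = 1.32e-07) and Tk1 by 1.94 ± 0.20 (SE, adjusted p = 1.91e-06), and both had their largest change in Elf5-model basal cells, 2.71 and 2.69.

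The replication-coupled chromatin genes reached the largest change of the whole set. Uhrf1 reads hemimethylated DNA and brings in Dnmt1, which copies methylation to the new strand. Uhrf1 read 38.2 and 10.9 CPM in the basal ducts of the Elf5 model against 172 and 151 CPM in the matching TEBs, and 29.3 and 20.4 CPM against 174 and 151 CPM in the PR-cre model. Among luminal cells, Uhrf1 went from 36.9 and 4.24 CPM in ducts to 159 and 109 in TEBs for GFP+, with 40.4 and 12.1 and then 101 and 73.9 for GFP-, 22.1 and 46.8 and then 111 and 92.2 for YFP+, and 25.5 and 30.4 and then 179 and 141 for YFP-. All TEB libraries lay above all duct libraries, and Uhrf1 rose by 2.32 ± 0.33 (SE, adjusted p = 5.42e-05), or 1.98 without the 3 Elf5-model duct libraries. The CAF-1 subunits Chaf1a and Chaf1b, which place histones on new DNA, rose by 1.74 and 1.70. Dnmt1 rose by 0.99 ± 0.08 (SE, adjusted p = 2.6e-08), with its smallest changes in GFP- (0.52) and YFP+ cells (0.59). Slbp, which binds the stem-loop of replication-dependent histone mRNA, had the smallest change, 0.29 ± 0.06 (SE, adjusted p = 0.000365).

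The basal and luminal layers were next compared by testing whether the TEB change differed between the mean of both basal and the mean of all 4 luminal populations. For 43 of the 48 genes no difference was called, and for 5 it was, where 26.3% of all genes tested were called in either direction, 11.4% with a higher and 14.9% with a lower basal change. The change was lower in basal than in luminal cells for Ccne1, Pcna and Slbp, and higher for Pold3 and Dnmt1. All 5 calls were kept in each of the 9 alternative settings and with each of the 24 libraries left out in turn. The count itself went up to 7 without both keratinocyte-RNA libraries, to 8 without Elf5-model basal duct replicate 1 or GFP- duct replicate 2, to 9 without GFP+ duct replicate 2, and to 8 without the 3 Elf5-model duct replicate 2 libraries. The same difference was called lower for 5 of 10 endothelial and pericyte, 5 of 8 luminal and 3 of 8 basal markers and for none of 10 immune markers, and their part in these differences was not tested.

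**Figure D5:**
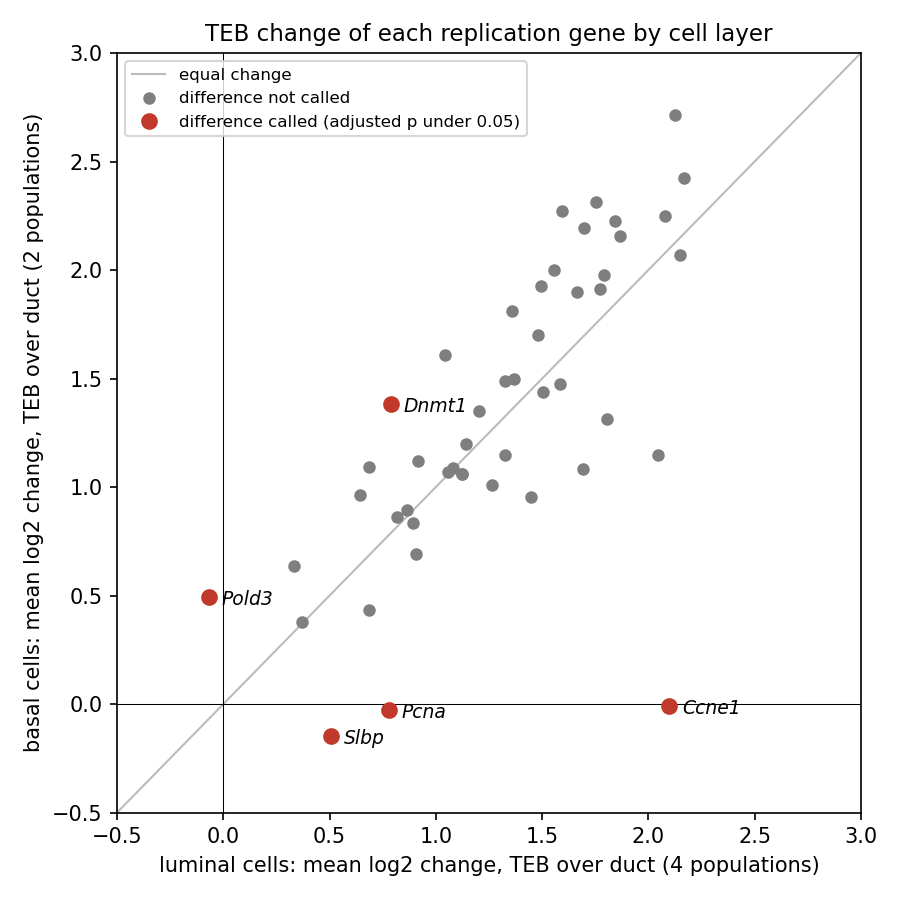
Mean log2 change, TEB over duct, in luminal cells (horizontal axis, 4 populations) against basal cells (vertical axis, 2 populations) for each replication gene; the grey line is equal change, and red points are genes whose difference passed the test. Ccne1 lies at 2.10 in luminal and -0.01 in basal cells, and Pold3 at -0.07 and 0.49.

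Ccne1, cyclin E1 (Entrez 12447, chr7:38097984-38107490 on GRCm38), showed the widest gap. Ccne1 read 21.6 and 19.4 CPM in the basal ducts of the Elf5 model against 26.6 and 20.9 CPM in the matching TEBs, and 17.5 and 26.9 CPM against 18.1 and 19.8 CPM in the PR-cre model. The luminal ducts read 4.36 and 0.602 CPM in GFP+, 5.85 and 2.64 in GFP-, 4.13 and 7.92 in YFP+ and 2.70 and 4.95 in YFP- cells, and the TEBs of the same populations 16.01 and 11.9, 20.8 and 13.6, 17.8 and 16.05, and 25.6 and 15.4 CPM. Duct and TEB values overlapped in both basal populations, whereas in luminal cells every TEB library (11.9 to 25.6 CPM) exceeded every duct library (0.602 to 7.92 CPM). The basal change minus the luminal change was -2.11 ± 0.52 (SE, adjusted p = 0.00738). The basal ducts, at 17.5 to 26.9 CPM, lay above all luminal ducts. In ducts, basal exceeded luminal cells by 2.43 ± 0.35 (SE, adjusted p = 2.61e-05), and in TEBs by 0.32 ± 0.35 (SE, adjusted p = 0.477). Ccne2 is the other E-type cyclin, and it was called higher in Elf5-model basal cells (1.31) but not in PR-cre-model basal cells (0.85). In basal cells of the Elf5 model, Ccne2 measured 4.35 and 4.16 CPM in the ducts and 10.1 and 11.04 CPM in the TEBs, and in the PR-cre basal gate 5.16 and 4.63 CPM and 10.6 and 7.09 CPM. Among luminal cells, Ccne2 went from 3.49 and 1.27 CPM in ducts to 11.4 and 7.14 in TEBs for GFP+, with 2.44 and 2.86 and then 9.64 and 8.14 for GFP-, 2.36 and 3.21 and then 6.89 and 5.14 for YFP+, and 2.32 and 2.68 and then 11.3 and 8.23 for YFP-. The TEB libraries of Ccne2 exceeded the ducts in each population, with a mean change of 1.49 ± 0.15 (SE, adjusted p = 6.21e-07). Its difference between layers did not pass the test (-0.61 ± 0.32 (SE, adjusted p = 0.186)).

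Pcna (Entrez 18538, chr2:132249286-132253180) had a smaller gap in the same direction. Basal libraries held Pcna at 129.6 and 125 CPM in Elf5-model ducts, 145 and 139 CPM in Elf5-model TEBs, 116 and 139 CPM in PR-cre ducts and 119 and 100.1 CPM in PR-cre TEBs. Ducts against TEBs of the luminal gate, it measured 111 and 95.2 against 172 and 131 CPM in GFP+, 64.9 and 52.6 against 122 and 103 in GFP-, 51.8 and 69.6 against 118 and 105 in YFP+, and 97.1 and 95.2 against 158 and 167 in YFP- cells. In Elf5-model basal cells the TEB libraries lay just above the ducts, in PR-cre-model basal cells the tissues overlapped, and in all 4 luminal populations the TEB libraries were clearly higher. The difference between layers was -0.81 ± 0.14 (SE, adjusted p = 0.000329). Basal ducts held more Pcna than luminal ducts, by 0.72 ± 0.10 (SE, adjusted p = 4.09e-06), and in TEBs the difference was -0.09 ± 0.10 (SE, adjusted p = 0.493). Slbp (Entrez 20492, chr5:33640055-33652574) differed in the same direction. Slbp read 107 and 109 CPM in the basal ducts of the Elf5 model against 99.2 and 94.1 CPM in the matching TEBs, and 84.9 and 85.5 CPM against 84.02 and 71.5 CPM in the PR-cre model. Ducts against TEBs of the luminal gate, it measured 78.1 and 75.02 against 101 and 85.7 CPM in GFP+, 61.2 and 54.6 against 91.1 and 67.2 in GFP-, 45.6 and 49.8 against 87.3 and 82.4 in YFP+, and 80.4 and 71.00 against 114 and 93.96 in YFP- cells. Both TEB libraries lay below both ducts in each basal population, and above both ducts in each luminal population. The basal change minus the luminal change was -0.65 ± 0.12 (SE, adjusted p = 0.000524). The basal changes taken alone were not called (-0.16 ± 0.14 (SE, adjusted p = 0.386) and -0.13 ± 0.14 (SE, adjusted p = 0.535)), and both turned to above 0 when libraries were scaled by their totals alone. Slbp is the factor for histone mRNA, and the histone genes themselves were not examined.

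Dnmt1 (Entrez 13433, chr9:20907206-20959888) and Pold3 (Entrez 67967, chr7:100082110-100121502) went the other way. Basal libraries held Dnmt1 at 102 and 59.00 CPM in Elf5-model ducts, 251 and 253 CPM in Elf5-model TEBs, 117 and 93.5 CPM in PR-cre ducts and 238 and 219 CPM in PR-cre TEBs. The luminal ducts read 179 and 139.6 CPM in GFP+, 206 and 181 in GFP-, 202 and 239 in YFP+ and 204 and 226 in YFP- cells, and the TEBs of the same populations 357 and 340.5, 282 and 272, 337 and 327, and 411 and 397 CPM. Dnmt1 separated by tissue in every population, and its basal change exceeded the luminal by 0.59 ± 0.16 (SE, adjusted p = 0.0103). Basal ducts held less Dnmt1 than luminal ducts (-1.09 ± 0.12 (SE, adjusted p = 4.11e-07)), and basal TEBs still held less (-0.49 ± 0.12 (SE, adjusted p = 0.00135)). For Pold3, whose values stand above, the basal change exceeded the luminal by 0.56 ± 0.08 (SE, adjusted p = 9.94e-05). Its level in ducts was lower in basal cells by -1.10 ± 0.06 (SE, adjusted p = 9.79e-11) and in TEBs by -0.54 ± 0.06 (SE, adjusted p = 6.42e-07). In GFP+ cells Pold3 read -0.22 ± 0.10 (SE, adjusted p = 0.126), not called. Scaling by library totals alone turned that value to above 0, and without the Elf5-model duct replicate 2 libraries it was called lower (adjusted p = 0.036).

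Within the luminal gate, the TEB change was compared between GFP+ with YFP- cells, on one side, and GFP- with YFP+ cells, on the other. These pairs were joined because the Elf5 reporter and the PR reporter are known to mark largely opposite luminal lineages, the first secretory progenitor and the second hormone-sensing. No replication gene passed edgeR's test, where 10.6% of all genes did, 4 had an unadjusted p under 0.05, and DESeq2 called 2. The 4, all with the larger change in GFP+ and YFP- cells, were Orc6 (0.53 ± 0.18 (SE, adjusted p = 0.0699)), Mcm4 (0.68 ± 0.25 (SE, adjusted p = 0.105)), Gins1 (1.14 ± 0.45 (SE, adjusted p = 0.118)) and Dnmt1 (0.46 ± 0.18 (SE, adjusted p = 0.123)). The difference was above 0 for 40 of the 48 genes, with a median of 0.37 against 0.04 over all genes. This count moved with single libraries: without GFP- duct replicate 1 the difference was above 0 for 24 of 48 (median -0.02), and without GFP+ duct replicate 2 for 30 (median 0.09). Counts under other settings were 3 with library totals, 1 without both keratinocyte-RNA libraries, 2 without the Elf5-model duct replicate 2 libraries, 3 without GFP+ duct replicate 1 and 1 without GFP- duct replicate 2. Between the Elf5 and PR-cre models the TEB change differed for 0 of 48 genes by edgeR, with 0 at an unadjusted p under 0.05 and 0 by DESeq2, where 2.96% of all genes were called. Without Elf5-model basal duct replicate 1 or GFP+ duct replicate 1 that count was 1. The median difference, Elf5 model minus PR-cre model, was 0.10, and it was -0.16 without the Elf5-model duct replicate 2 libraries.

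Levels, as opposed to changes, also differed between populations of the same tissue. In ducts, 8 replication genes differed between GFP+ with YFP- cells and GFP- with YFP+ cells, where 47.9% of all genes did (24.6% higher and 23.3% lower in GFP+ and YFP- cells). Pola1, Fen1, Orc1, Pcna, Gins4, Pold3 and Slbp were higher in GFP+ and YFP- cells, from 1.21 ± 0.26 (SE, adjusted p = 0.00131) for Pola1 to 0.53 ± 0.10 (SE, adjusted p = 0.0002) for Slbp, and Gins2 was lower (-0.53 ± 0.21 (SE, adjusted p = 0.0442)). The split of 7 higher to 1 lower was 6 to 2 with upper quartile scaling and 6 to 4 with library totals. Without GFP+ duct replicate 1 the counts were 5 higher and 10 lower. Across all settings and left-out libraries, Pola1, Pcna, Gins4, Pold3 and Slbp were called each time. Pcna illustrates the gap: the 4 ducts of GFP+ and YFP- cells read 95.2 to 111 CPM, and the 4 ducts of GFP- and YFP+ cells 51.8 to 69.6 CPM, with no overlap.

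In TEBs, 10 replication genes were higher in GFP+ and YFP- cells and none was lower, where 47.6% of all genes differed (24.6% higher and 23.0% lower). They were Pola1 (1.16 ± 0.26 (SE, adjusted p = 0.0017)), Orc1 (1.11 ± 0.32 (SE, adjusted p = 0.00794)), Cdt1, Rpa2, Prim1, Pold3, Pcna, Rfc5, Gins4 and Slbp (0.27 ± 0.10 (SE, adjusted p = 0.031)). Of these, Pola1, Orc1, Pcna and Pold3 were called in every setting and with every library left out. The count fell to 4 without GFP+ TEB replicate 1, YFP+ TEB replicate 1 or GFP- TEB replicate 2, and to 5 without YFP+ TEB replicate 2, GFP- TEB replicate 1 or YFP- TEB replicate 1, and it rose to 21 without the Elf5-model duct replicate 2 libraries.

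Between layers, 16 replication genes differed in ducts, where 63.3% of all genes did (33.5% higher and 29.8% lower in basal cells). Basal ducts were higher in Ccne1, Ccne2 (0.82 ± 0.23 (SE, adjusted p = 0.00417)), Pcna, Orc1, Pola1, Slbp, Pold2 and Rpa2, and lower in Pold3, Dnmt1, Mcm6 (-0.94 ± 0.33 (SE, adjusted p = 0.0249)), Tk1, Lig1, Rfc4, Prim1 and Gins4. The even split of 8 and 8 became 10 and 6 with RLE scaling and 6 and 9 with library totals. It was 4 and 14 without Elf5-model basal duct replicate 1, 5 and 14 without GFP+ duct replicate 2, and 8 and 3 without Elf5-model basal duct replicate 2. In TEBs 6 differed, where 58.8% of all genes did (30.8% higher and 28.0% lower in basal cells). Rfc2 (0.35 ± 0.10 (SE, adjusted p = 0.00464)), Pold2 and Rpa2 were higher in basal TEBs, and Cdc6 (-1.06 ± 0.38 (SE, adjusted p = 0.0254)), Dnmt1 and Pold3 were lower. Without the Elf5-model duct replicate 2 libraries 16 were called in TEBs, with the 6 among them.

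Levels were also divided by the gene model length given with the counts. That length need not be the length of the transcript made, so the order of genes is approximate. Per kilobase of gene model, Pcna stood first in both tissues. Its mean was 75.9 CPM per kilobase over the ducts and 104 CPM per kilobase over the TEBs. Slbp (46.1) and Mcm6 (36.8) came next in ducts, and Mcm6 (98.6) and Slbp (54.7) in TEBs. Of the 6 genes with the smallest mean TEB change, Pcna, Slbp, Rpa1 (22.8), Pold3 (19.9) and Rfc1 (19.2) were in the first 8 of the duct order, and Gins4 (14.5) was not. Mcm6 and Dnmt1 (25.7), at ranks 3 and 4 in ducts, rose by 1.55 and 0.99. The lowest in ducts were Ccne2 (1.01), Cdc6 (1.09), Orc1 (1.10) and Gins3 (1.19). In the TEB order Pcna, Slbp, Rpa1, Rfc1, Pold3 and Gins4 stood at ranks 1, 3, 13, 20, 29 and 31. The duct level is also the base of the TEB change, so the duct order and the change are not independent. The arrangement in ducts was noticed in the data and is given as a description.

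Genes of the same pathway outside the 48 were counted from lists by role. Of 30 other replication genes 25 rose, 1 fell and 4 were not called in the mean of the 6 populations. Their median log2 change was 1.01. In that mean 23.0% of all genes tested were called higher, and the share called lower is not given here. The firing factor Ticrr (2.38) and the checkpoint mediator Clspn (2.31) changed most, and the origin subunits Orc4 (0.01) and Orc3 (-0.04) least. Of 15 other nucleotide genes 12 rose, among them Dck (1.48), which salvages deoxynucleosides, and 2 fell. The changes smallest in size were those of Impdh2 (-0.11) and the dNTP hydrolase Samhd1 (-0.27). Among 14 genes of the E2F and RB family 10 rose and 3 fell. The repressor-type E2f8 (2.43) and E2f7 (2.37) changed most in the mean, and Tfdp2 (0.13) and E2f6 (0.32) least. In GFP+ cells alone the family ran from -3.06 for Rb1 to 3.01 for E2f7. All 11 other replication chromatin genes rose, from Rbbp4 (0.31) and Casp8ap2 (0.44) to Hells (1.77) and the histone chaperone Asf1b (2.30). All 24 mitosis genes rose, with a median of 2.38 against 1.33 for the 48. The cyclin Ccnb1 (2.66) and Ube2c (2.58) led and Aurka (1.66) and Kif20a (2.14) trailed. Summed mitosis CPM stood at TEB-to-duct ratios of 3.22 to 7.25 across the populations, above the 2.02 to 2.52 of the replication genes in each. Without the 3 Elf5-model duct libraries these ranges were 2.36 to 7.25 and 1.68 to 2.37. Whether the lists differ was not tested.

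Some counts may mix genes. The library kit does not mark strand, and 12 of the 48 share exon bases with another gene of the table. Among them, over all annotated exons, are Chaf1a with Ubxn6 (4648 bases), Gins2 with Gse1 (2758) and Rfc2 with Lat2 (952). Shorter stretches are shared by Ccne2 with Ints8 (609), Mcm7 with Ap4m1 (321) and Cops6 (64), and Lig1 with Zswim9 (247). The same holds for Cdc45 with Ufd1 (209) and Fen1 with Tmem258 (130). Rfc5 shares bases with Wsb2 (499), Rfc4 with Eif4a2 (194), Orc6 with Vps35 (171) and Tk1 with Afmid (83). What the shared bases add to the counts and changes of these genes was not tested. Processed copies of Pcna and of Tyms are annotated in the mouse genome, and that of Tyms has a count of its own in the table. How reads that match both were assigned was not stated.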

How the data were processed

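RNA of sorted mammary epithelial cells was measured by bulk RNA-seq in 24 libraries, 2 for each of 12 groups taken from the titles. The library kit, TruSeq RNA v2 per the labels' protocols, was used on total RNA and does not mark strand. Each deposited file gives counts, as whole numbers, for 27179 Entrez identifiers. featureCounts and the mm10 build are named per the submitters' processing notes. Neither the aligner, the annotation nor the handling of multiply matching reads was given in the sources used here. The table of the whole series differed from the single files in 0 values. RefSeq tables named 25275 identifiers and GENCODE 18.

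Counts were fitted with edgeR 4.0.16 (R 4.3.3) after filterByExpr (minimum count 10, minimum total 15; 18109 genes, all 48 replication genes among them) and TMM scaling, with a mean per group, all 24 libraries and 12 residual degrees of freedom. Contrasts were tested with the robust quasi-likelihood F-test, adjusted over all genes by Benjamini-Hochberg and called under 0.05. Where no other tool is named, an adjusted p is edgeR's. The standard error of a log2 change is its size over the square root of F. Replicates differed by more than sampling noise in each group (chi-square per degree of freedom 17.2 to 164.7). Counts carry no molecular identifiers, so depth covers counting error only. The fit was tested on simulated counts with 2-fold and 4-fold changes set in Elf5-model basal TEBs. They held no shared shift of replicates like that of the Elf5-model ducts and no library with extra keratinocyte RNA. The simulation therefore cannot tell how the fit handles those libraries. Alternatives were RLE, upper quartile and total-count scaling, no filter, DESeq2 1.42.0, limma-voom 3.58.1, a replicate block, fits to the libraries compared only, and left-out libraries.

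The 48 genes, the other lists and the rule for named genes were chosen with earlier results of these data known. By that rule, values in every library are given for the genes of largest and smallest mean change in each role, both E-type cyclins and genes called in a difference between groups; of the other lists, the 2 largest and 2 smallest changes are named, except 1 that is not reported here. Mcm4, Mcm5 and Fen1 values, and the GFP+ values of Rb1 and E2f7, were added after they were seen.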

Additional observations from a re-analysis of the deposited data

Results flagged for a closer look

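The TEB change of 5 replication genes differed between the basal and the luminal layer by a direct test of the difference (edgeR's quasi-likelihood test, adjusted over all genes; mean of both basal minus mean of the 4 luminal populations, log2). Ccne1 differed by -2.11, with an adjusted p of 0.00738 (0.000137 to 0.032 over the alternatives and left-out libraries). Pcna differed by -0.81, with an adjusted p of 0.000329 (8.71e-07 to 0.00299). Slbp differed by -0.65, with an adjusted p of 0.000524 (1.91e-06 to 0.00518). Dnmt1 differed by 0.59, with an adjusted p of 0.0103 (8.62e-05 to 0.0306). Pold3 differed by 0.56, with an adjusted p of 9.94e-05 (2.69e-08 to 0.00058). Both TEB libraries of Slbp lay below both ducts in each basal population and above them in each luminal population. Why these genes differ was not tested.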

How the results depend on the processing

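With 2 libraries a group, the number of genes called depends on the settings, while no called change of a replication gene turned its sign under any setting or left-out library. Uncalled changes did, such as those of Slbp and Pold3 in single populations with library totals. All 48 were called higher in the mean of the populations in every alternative except RLE scaling, upper quartile scaling and DESeq2, each with 47. Scaling by library totals moved the median of all genes by up to 0.28 in log2, in GFP+ cells. Counts that moved by over 1.5 times follow, with the cause not tested. The share of all genes called was counted for the fit as reported only. Whether other genes moved alike under these settings therefore cannot be told. For TEB over duct, YFP+ cells (18 as reported) gave 31 with DESeq2, 35 with limma-voom, 39 with their own libraries only and 44 without the 3 Elf5-model duct libraries numbered 2. GFP- cells (26) gave 2 without both keratinocyte-RNA libraries and 0 with their own libraries only. PR-cre basal cells (29) gave 44 and GFP+ cells (41) gave 20 with their own libraries only. For levels in luminal TEBs (10), counts were 6 with upper quartile scaling, 18 with library totals, 4 without a filter, 21 with limma-voom, 27 with the compared libraries only and 21 without the 3 duct libraries. For basal over luminal TEBs (6) they were 12 with limma-voom, 17 with the compared libraries only and 16 without the 3 duct libraries. Compared libraries only gave 5 for luminal ducts (8) and 8 for basal over luminal ducts (16). The luminal difference in TEB change (0) gave 3 with library totals, 2 with DESeq2, 1 without the keratinocyte-RNA libraries and 2 without the 3 duct libraries. The basal-luminal difference (5) gave 8 without the 3 duct libraries.

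With 1 library left out at a time, counts ran from 26 to 42 in Elf5 basal, 7 to 21 in PR-cre basal, 11 to 41 in GFP+, 3 to 35 in GFP-, 1 to 11 in YFP+ and 7 to 32 in YFP- cells, and stayed at 48 in the mean. They ran from 5 to 9 for the basal-luminal difference, 0 to 3 for the luminal difference, 0 to 1 for the difference between models, 6 to 15 and 4 to 10 for luminal levels in ducts and TEBs, and 11 to 19 and 4 to 7 for basal over luminal levels in ducts and TEBs. A lone library is then assumed to vary like the other groups.

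Ducts and TEBs share replicate numbers, and same-numbered libraries correlated in their deviations at 0.039 to 0.102, with 2 of 6 pairs over 0.1. Across gates of a model and tissue the values ran from 0.01 to 0.152, the highest between GFP+ and GFP- TEBs. As not every pair passed 0.1, the numbers were not taken as pairs. That cut-off was a choice and cannot show whether same-numbered libraries share animals. A fit with the replicate number as a block gave 44 and 40 in Elf5 and PR-cre basal cells, 42, 41, 37 and 45 in GFP+, GFP-, YFP+ and YFP- cells, 48 in the mean, 7 for the basal-luminal difference, 1 for the luminal difference, 14 and 20 for luminal levels in ducts and TEBs, and 20 and 11 for basal over luminal levels. Depth does not limit these genes, whose lowest count was 19.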

Other observations

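In the Elf5 model, replicate 1 held more replication RNA than replicate 2 in 6 of 6 groups, with ratios of the summed CPM between 1.08 and 1.70, and in the PR-cre model it did so in 4 of 6, with ratios between the replicates of 1.06 to 1.34. The 3 sorted gates of a replicate number and tissue may share animals, so these are not 12 independent comparisons.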
